A study of Mus with 17 samples.

Results

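Adult globin RNA was followed through 4 transcripts of mouse abdominal aorta, chosen by their Ensembl identifiers. They are Hba-a1 (ENSMUST00000093209) and Hba-a2 (ENSMUST00000093207), which encode the alpha chain of haemoglobin, and Hbb-bs (ENSMUST00000023934) and Hbb-bt (ENSMUST00000098192), which encode its adult beta chain. All 4 were among the 39614 transcripts listed for every sample, and all 4 passed the filter on low values that left 29983 transcripts for testing. The symbols come with the list of identifiers, since the files hold identifiers only.

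The series holds 17 abdominal aorta samples of wild-type (WT) C57BL/6 mice, each treated for 42 days. In the AngII+neferine group (n = 6) the mice had angiotensin II at 500 ng/kg/min, a peptide hormone that narrows vessels, together with neferine at 1 mg/kg/day, an alkaloid of lotus seeds. The AngII group (n = 6) had the same angiotensin II dose with double distilled water, and the Control group (n = 5) had saline with double distilled water. The labels used here do not state age, sex or the number of animals per sample, so each p-value covers only the spread from sample to sample, which may be technical. The neferine samples were deposited as a separate file set, and neferine treatment and file set cannot be told apart.

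Haemoglobin carries oxygen in red blood cells as an assembly of alpha and beta chains. Mature mouse red cells have lost their nucleus, and most globin RNA in blood sits in reticulocytes, the young red cells that still hold RNA. Globin transcripts in a solid tissue are therefore commonly read as a sign of blood left in it, and in the wall of small arteries endothelial cells are also known to make alpha globin, which limits nitric oxide signalling there. In bulk tissue, more red cells and more globin RNA per cell cannot be told apart. The alpha genes are near-identical copies of each other, and so are the beta genes of this strain, so reads can be divided wrongly within a pair and the split within a pair is uncertain.

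Levels are abundance signals on a linear scale whose unit is not named. The files do not say whether they are divided by transcript length, so a ratio of one transcript to another is compared between samples only. Read depth is unknown. AngII replicate 6 stood apart from the other 16 libraries over all transcripts. It had 16.4% of the shared transcripts listed at 0, against 4.39% to 10.1% in the others, and its transcripts ranked less like those of the rest, with a median rho of 0.455 against 0.606 to 0.680. AngII replicate 2 and AngII+neferine replicate 1 also stood apart, in that their 10 highest transcripts took 31.0% and 29.0% of the signal, against 10.6% to 21.8% in the other 15 libraries. Smooth muscle, endothelial and other blood cell markers could not be measured, because the identifiers are not paired with symbols in the tables used here.

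The summed signal of the 4 transcripts was highest in AngII, lower in Control and lowest in AngII+neferine. It had a mean of 677 ± 298 (SD, n = 6) and a median of 740 in AngII+neferine, a mean of 6043 ± 6003 (SD, n = 6) and a median of 3463 in AngII, and a mean of 1228 ± 995 (SD, n = 5) and a median of 794 in Control. This made up 0.0407% to 0.214% of the library signal in AngII+neferine, 0.238% to 3.52% in AngII and 0.0619% to 0.614% in Control. The AngII mean rested on 3 libraries: replicates 1, 4 and 6 had summed signals of 5260.1, 14784 and 12137, while replicates 2, 3 and 5 had 1442, 1665 and 972. The highest Control library, replicate 4, had 2705, which is above those 3 lower AngII libraries. Every AngII+neferine library lay below every AngII library in this sum, by a narrow margin between 937 in AngII+neferine replicate 1 and 972 in AngII replicate 5. Single transcripts with groups that do not overlap made up 0.263% of those tested in this comparison, and the sum, formed with earlier results known, carries no test.

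**Figure D1:**
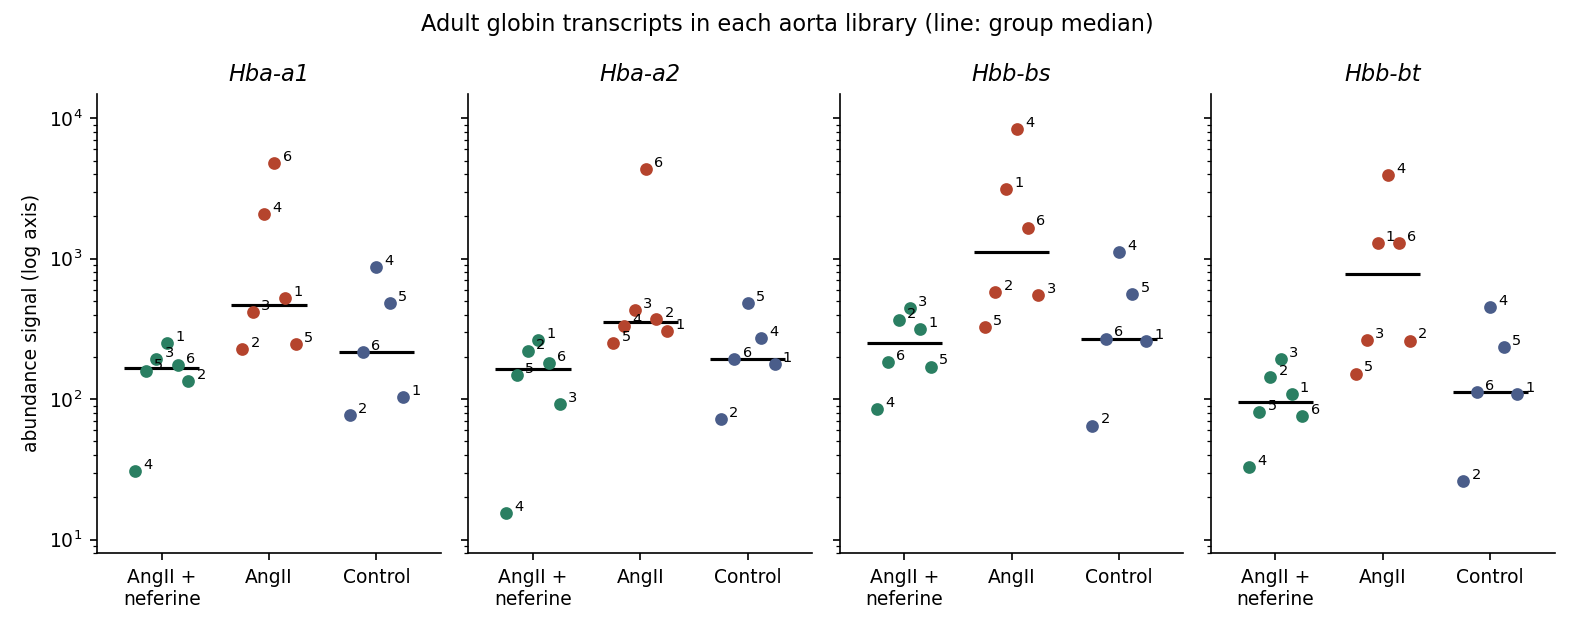
Abundance signal (log axis) of each globin transcript in each library, by group, with replicate numbers beside the points and a line at the group median. The AngII points reach 8409.7 for Hbb-bs in replicate 4 and 4806 for Hba-a1 in replicate 6, and AngII replicates 2, 3 and 5 lie within the Control range for all 4 transcripts.

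Hbb-bs, a beta gene, had its highest signals in 3 AngII libraries. In AngII+neferine its signal was 314, 365, 446, 85.4, 171 and 184 in replicates 1 to 6. In AngII it was 3132, 581, 553, 8409.7, 324 and 1666 in replicates 1 to 6, and in Control it was 258, 64.9, 1108.5, 559 and 270.1 in replicates 1, 2, 4, 5 and 6. AngII replicates 1, 4 and 6 lay above every Control library, and the other 3 AngII libraries lay within the Control range. Control replicate 2 was lower than every AngII+neferine library, and 4 of the 6 AngII+neferine libraries were lower than every AngII library.

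Hbb-bt, the companion beta gene, was high and low in largely the same libraries. Its signal was 109, 144, 194, 32.6, 80.8 and 75.8 in AngII+neferine replicates 1 to 6. It was 1300.1, 261, 264, 3947, 152 and 1291 in AngII replicates 1 to 6, and 108, 26.2, 453, 234 and 112 in Control replicates 1, 2, 4, 5 and 6. Again AngII replicates 1, 4 and 6 were above all Control libraries, and 5 of the 6 AngII+neferine libraries were below all AngII libraries.

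Hba-a1, an alpha gene, was highest in a different AngII library. Its signal was 250.1, 135, 193, 30.8, 159 and 175 in AngII+neferine replicates 1 to 6. It was 521, 228, 416, 2094, 245 and 4806 in AngII replicates 1 to 6, and 104, 77.4, 873, 480.5 and 217 in Control replicates 1, 2, 4, 5 and 6. Only AngII replicates 4 and 6 exceeded every Control library for this transcript, and AngII+neferine replicate 4 was the lowest of all 17.

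Hba-a2, the other alpha gene, was similar in 5 of the 6 AngII libraries. Its signal was 264, 221, 92.1, 15.5, 147 and 180.0 in AngII+neferine replicates 1 to 6. It was 307, 371, 431, 333, 250.4 and 4375 in AngII replicates 1 to 6, and 177, 72.1, 271, 480.4 and 194 in Control replicates 1, 2, 4, 5 and 6. AngII replicate 6 was the single AngII library above all Control libraries. In AngII replicate 4, which had the highest beta signals of the series, Hba-a2 was within the Control range.

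AngII was compared with Control to ask whether globin RNA differs after angiotensin II infusion. All 4 members were on the higher side in AngII, as 47.5% of tested transcripts were. Their log2 fold changes lay between 1.35 and 2.32, with a median of 1.82 against -0.03 over all tested transcripts, and none passed the test. The test was limma on log2(signal + 1) across all transcripts, with a call at a Benjamini-Hochberg adjusted p under 0.05, and it called 0% of all transcripts in this comparison. Hbb-bt had the largest difference of the members, 2.32 ± 0.81 (SE), with a 95% interval of 0.60 to 4.04 and an adjusted p of 0.632 (limma). This is a 4.98-fold higher value of signal + 1 in AngII, with an interval of 1.51 to 16.4. Hbb-bs differed by 2.06 ± 0.81 (SE), with an interval of 0.35 to 3.76 (limma, adjusted p = 0.660). The alpha transcripts had intervals that include 0: Hba-a1 differed by 1.57 ± 0.82 (SE; limma, adjusted p = 0.724) and Hba-a2 by 1.35 ± 0.77 (SE; limma, adjusted p = 0.744).

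At an unadjusted limma p under 0.05 the beta transcripts, 2 of the 4 members, were higher in AngII, where 3.31% of all tested transcripts were. By the exact rank sum test, whose smallest possible p is 0.00433 here, 0 of the 4 had an unadjusted p under 0.05. After adjustment 0 of the 4 passed, and 0 of the whole table. With that smallest p, the adjustment passes a transcript only when a large share of the table reaches it. The adjusted rank sum result therefore does not bear on the members. The groups overlapped for all 4 members, while 0.807% of all transcripts had groups that do not overlap. Of all tested transcripts 0.267% had an absolute log2 fold change larger than that of Hbb-bt, and 2.41% one larger than that of Hba-a2. These shares are over transcripts of all levels, and none was taken among transcripts as abundant as the members. Without AngII replicate 6 the log2 fold changes were 1.02 for Hba-a1 and 0.73 for Hba-a2, and they were 1.98 for Hbb-bs and 2.11 for Hbb-bt. Without AngII replicate 4 they were 1.26, 1.47, 1.52 and 1.79 in the order Hba-a1, Hba-a2, Hbb-bs and Hbb-bt.

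AngII+neferine was compared with AngII to ask whether globin RNA differs when neferine is added to the infusion. All 4 members were on the lower side with neferine, as 50.5% of tested transcripts were. Their log2 fold changes were -2.79 to -2.15 with a median of -2.45, against a median of -0.0042 over all tested transcripts. None passed limma's adjusted threshold, and neither did any other transcript (0%). Hbb-bt differed by -2.79 ± 0.78 (SE), with a 95% interval of -4.43 to -1.15 and an adjusted p of 0.737 (limma), which is 0.145 times the AngII value of signal + 1. Hbb-bs differed by -2.50 ± 0.77 (SE; limma, adjusted p = 0.815). Hba-a1 differed by -2.39 ± 0.78 (SE; limma, adjusted p = 0.842), and Hba-a2 by -2.15 ± 0.74 (SE; limma, adjusted p = 0.863).

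All 4 members had an unadjusted limma p under 0.05 and were lower with neferine, where 2.31% of all tested transcripts were. These p were 0.00233 for Hbb-bt, 0.00478 for Hbb-bs, 0.00728 for Hba-a1 and 0.00996 for Hba-a2. The members follow each other over libraries, so these are not 4 independent observations. The exact rank sum test, whose smallest possible p is 0.00216 here, gave all 4 an unadjusted p under 0.05. After adjustment 0 of the 4 passed, and 0 of the whole table. To pass, a far larger share of transcripts than the 0.263% with groups that do not overlap would have to reach that smallest p. The adjusted rank sum result therefore does not bear on the members. The groups overlapped for all 4 members, against 0.263% of all transcripts with groups that do not overlap. Of the tested transcripts of all levels, 0.0734% had a larger absolute log2 fold change than Hbb-bt. Hbb-bt also had a larger SD within groups than 94.9% of them, and no share at its own level was taken. Without AngII replicate 6 the differences were -1.84 for Hba-a1, -1.53 for Hba-a2, -2.43 for Hbb-bs and -2.58 for Hbb-bt. This comparison uses the same AngII libraries as the one with Control, so a high AngII library raises the size of both differences.

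AngII+neferine was compared with Control to ask whether globin RNA differs from saline when neferine accompanies angiotensin II. All 4 members were on the lower side, as 52.9% of tested transcripts were, with log2 fold changes of -0.82 to -0.44 and a median of -0.63 against -0.03 over all tested transcripts. None passed limma, which called 0.0367% of all transcripts here. Hba-a1 differed by -0.82 ± 0.82 (SE; limma, adjusted p = 0.820) and Hba-a2 by -0.80 ± 0.77 (SE; limma, adjusted p = 0.815). Hbb-bs differed by -0.44 ± 0.81 (SE; limma, adjusted p = 0.911) and Hbb-bt by -0.47 ± 0.81 (SE; limma, adjusted p = 0.905). The 95% interval of Hbb-bt, -2.19 to 1.25, corresponds to between 0.219 and 2.38 times the Control level, a range that holds differences of either sign. Without Control replicate 4 the difference of Hbb-bs was 0.0164, on the other side of 0. No member had an unadjusted limma p under 0.05, which 8.74% of all transcripts had. The groups overlapped for all 4, against 2.08% of all transcripts with groups that do not overlap.

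**Figure D2:**
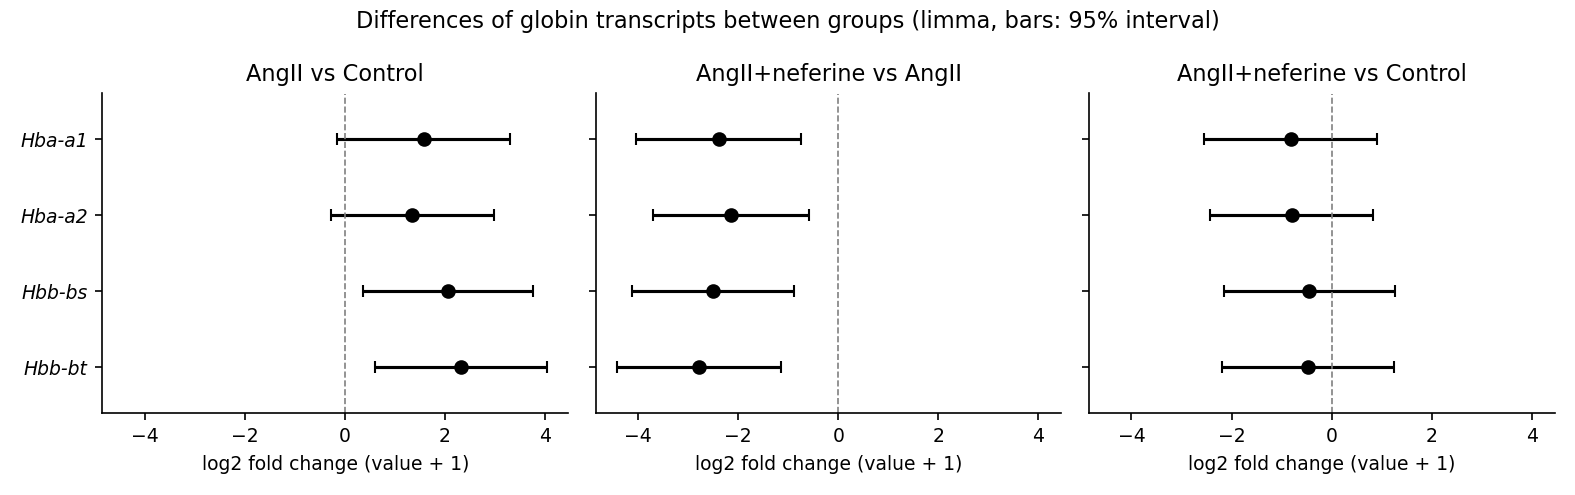
Log2 fold change of each globin transcript on the log2(signal + 1) scale in the 3 comparisons, as points with 95% intervals from limma. The intervals for AngII+neferine against AngII lie below 0 and those for AngII+neferine against Control include 0, while no adjusted p is below 0.632.

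For each member the group medians had the same order, lowest in AngII+neferine, then Control, and highest in AngII. The medians of Hbb-bs were 249 in AngII+neferine, 1124 in AngII and 270.1 in Control, and those of Hba-a2 were 164 in AngII+neferine, 352 in AngII and 194 in Control. No neighbours in this order differed beyond the spread between libraries by the adjusted test.

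The spread between libraries of the same group was large for transcripts this abundant. The SD within groups on the log2(signal + 1) scale was 1.46 for Hba-a1, 1.38 for Hba-a2, 1.44 for Hbb-bs and 1.45 for Hbb-bt, against a median of 0.599 over all tested transcripts. Between 93.7% and 95.1% of tested transcripts had a lower SD. Among the 188 other transcripts with a mean at least as high as that of Hbb-bt, the median SD was 0.520 and 9 had an SD at least that of Hba-a2. Within AngII the highest library exceeded the lowest 25.9-fold for Hbb-bs and 17.5-fold for Hba-a2. Within AngII+neferine the ranges were 5.22-fold and 17.1-fold for the same transcripts, and within Control 17.1-fold and 6.66-fold.

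**Figure D3:**
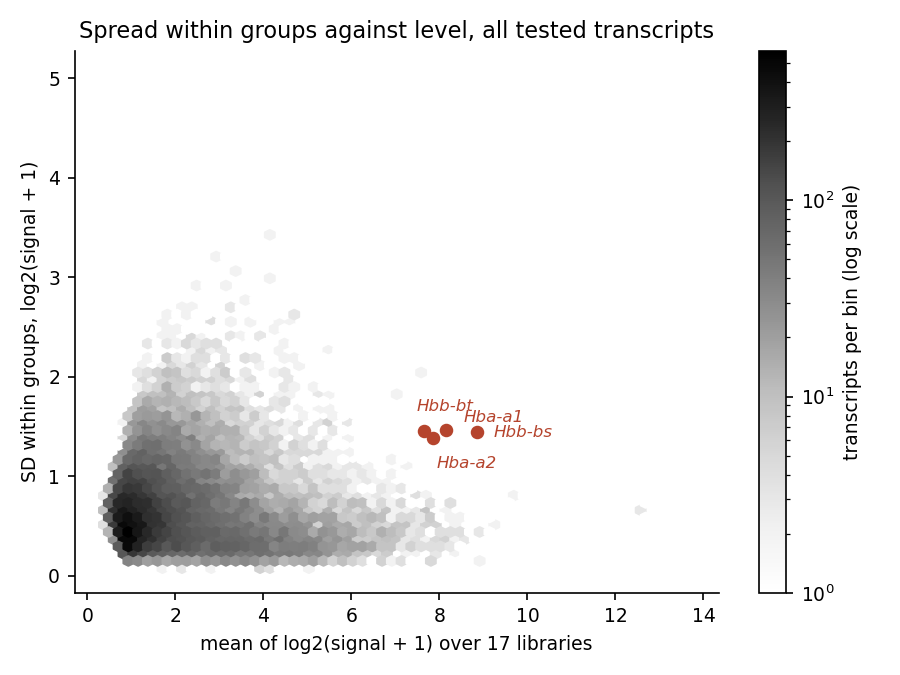
SD within groups against the mean of log2(signal + 1) over 17 libraries for all 29983 tested transcripts (grey bins, darker for more transcripts), with the globin transcripts as red points. The globin points lie at SDs of 1.38 to 1.46, above most transcripts of their level.

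The members were compared with each other over the 17 libraries on the log2(signal + 1) scale, as 6 pairs. The beta transcripts moved together most closely, with a Pearson r of 0.993 and a Spearman rho of 0.985 (permutation test, adjusted p = 3e-05 for both, the smallest that 100000 permutations can give before adjustment being 1e-05). The alpha transcripts had an r of 0.861 and a rho of 0.863 (permutation test, adjusted p = 4e-05 and 6e-05). Hba-a1 had an r of 0.848 with Hbb-bs and 0.887 with Hbb-bt (permutation test, adjusted p = 6e-05 and 3e-05), and rho values of 0.878 and 0.887 (permutation test, adjusted p = 4e-05 and 3e-05). Hba-a2 followed the beta transcripts less closely in Pearson's r, at 0.620 with Hbb-bs and 0.677 with Hbb-bt (permutation test, adjusted p = 0.0104 and 0.00408), while its rho values were 0.821 and 0.811 (permutation test, adjusted p = 0.00016 and 0.000144). The difference between these correlations was not tested. The transcripts of a pair share sequence, and all 4 share libraries. Libraries were permuted regardless of group, so these p also draw on differences between the groups.

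Without the 2 libraries farthest from the median of the first transcript of each pair, r was 0.836 for the alpha pair, 0.988 for the beta pair, 0.833 and 0.839 for Hba-a1 with Hbb-bs and Hbb-bt, and 0.598 and 0.597 for Hba-a2 with Hbb-bs and Hbb-bt. Each of these 6 passed the permutation test after adjustment. Within the file set of Control and AngII (n = 11), the alpha pair had an r of 0.821, the beta pair 0.992, and Hba-a1 0.817 with Hbb-bs and 0.869 with Hbb-bt. There the r of Hba-a2 with Hbb-bs was 0.514 and with Hbb-bt 0.606, and neither passed (permutation test, adjusted p = 0.111 and 0.0596). Their rho was 0.6455 for each and did pass (permutation test, adjusted p = 0.0376 for both). Within the 6 AngII+neferine libraries r was 0.910 for the alpha pair, 0.985 for the beta pair, 0.781 and 0.791 for Hba-a1 and 0.694 and 0.684 for Hba-a2 with Hbb-bs and Hbb-bt, of which the beta pair passed (exact permutation test, adjusted p = 0.0167). Within the 6 AngII libraries r was 0.761 for the alpha pair, 0.984 for the beta pair and 0.664 and 0.784 for Hba-a1 with Hbb-bs and Hbb-bt, while Hba-a2 had an r of 0.103 with Hbb-bs and 0.272 with Hbb-bt (rho 0.0857 and 0.143). There too only the beta pair passed in r (exact permutation test, adjusted p = 0.0167), so in the group with the most globin signal no relation of Hba-a2 with the beta transcripts was detected (exact permutation test, adjusted p = 0.919 and 0.918).

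The balance of alpha and beta signal differed widely between libraries. The ratio of summed alpha to summed beta signal was 1.21, 0.700, 0.445, 0.392, 1.22 and 1.37 in AngII+neferine replicates 1 to 6. It was 0.187, 0.711, 1.04, 0.196, 1.04 and 3.11 in AngII replicates 1 to 6, and 0.767, 1.64, 0.733, 1.21 and 1.08 in Control replicates 1, 2, 4, 5 and 6. The 3 AngII libraries with the most globin signal thus took opposite ends: replicates 1 and 4 had the lowest ratios of the series and replicate 6 the highest. On the log2 scale the mean ratio differed by 0.25 ± 0.72 (SE) between AngII+neferine and AngII and by -0.64 ± 0.67 (SE) between AngII and Control, each smaller than its SE with all libraries in. The first was -0.12 without AngII replicate 1, -0.10 without AngII replicate 4 and 0.69 without AngII replicate 6. The second was -0.27 without AngII replicate 1, -0.29 without AngII replicate 4, -1.08 without AngII replicate 6 and -1.22 without the libraries that stand apart.

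**Figure D4:**
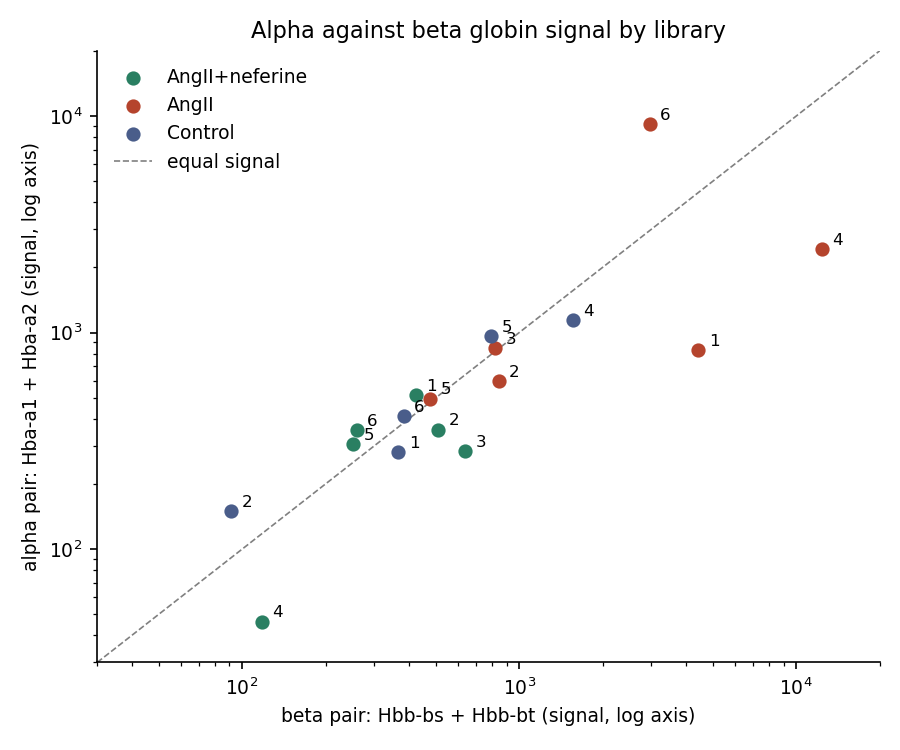
Summed signal of Hba-a1 and Hba-a2 against that of Hbb-bs and Hbb-bt in each library (both axes log), with replicate numbers and a dashed line of equal signal. AngII replicate 6 lies above the line at 9180.4 alpha against 2957 beta, and AngII replicates 1 and 4 lie below it, replicate 4 at 2427 alpha against 12357 beta.

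The split within the alpha pair was also uneven between libraries. Hba-a1 held 48.6%, 37.9%, 67.6%, 66.6%, 51.8% and 49.3% of the alpha signal in AngII+neferine replicates 1 to 6. Its share was 62.9%, 38.1%, 49.1%, 86.3%, 49.5% and 52.3% in AngII replicates 1 to 6, and 36.9%, 51.8%, 76.3%, 50.0% and 52.8% in Control replicates 1, 2, 4, 5 and 6. The group means were 53.7% ± 11.5 (SD, n = 6) in AngII+neferine, 56.4% ± 16.7 (SD, n = 6) in AngII and 53.5% ± 14.3 (SD, n = 5) in Control, means that differ by less than the SD within any group.

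Within the beta pair the split varied less than within the alpha pair. Hbb-bt held 28.9% ± 2.22 (SD, n = 6) of the beta signal in AngII+neferine, 33.4% ± 5.16 (SD, n = 6) in AngII and 29.3% ± 0.344 (SD, n = 5) in Control. Control libraries were at 28.8% to 29.6% and AngII+neferine libraries at 25.8% to 32.2%. AngII replicates 2 to 5, at 31.0%, 32.3%, 31.9% and 31.9%, lay above every Control library, and AngII replicate 1, at 29.3%, did not. AngII replicate 6, at 43.7%, lay farthest out, and the other 16 libraries lay between 25.8% and 32.3%. The same library had the highest alpha to beta ratio and the most transcripts listed at 0, whose part in these values was not tested.

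**Figure D5:**
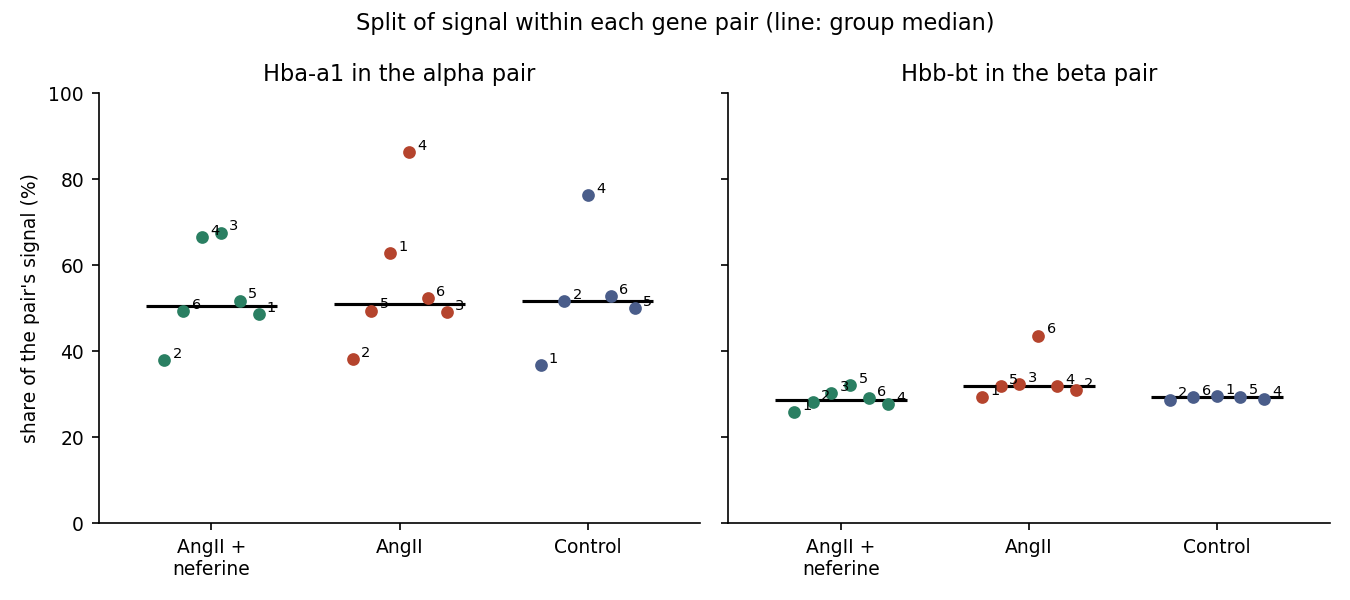
Share of Hba-a1 in the alpha signal (left) and of Hbb-bt in the beta signal (right), in percent, for each library by group, with replicate numbers and a line at the group median. Hba-a1 shares run from 36.9% to 86.3%, while Hbb-bt shares run from 25.8% to 32.3% outside AngII replicate 6, at 43.7%.

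Among the tested transcripts that are no member, the most similar in pattern to the summed globin signal over the 17 libraries was ENSMUST00000066337, with a Pearson r of 0.962 on the log2(signal + 1) scale and 0.955 without AngII replicate 6. Its signal was 3.02, 4.61, 4.65, 1.05, 2.48 and 2.18 in AngII+neferine replicates 1 to 6. It was 19.1, 6.20, 5.20, 105, 3.80 and 38.1 in AngII replicates 1 to 6, and 3.22, 1.55, 14.7, 7.55 and 5.35 in Control replicates 1, 2, 4, 5 and 6. It was thus highest in AngII replicates 4, 6 and 1, as the globin sum was, and its r was 0.961 with the beta sum and 0.848 with the alpha sum. The assembled transcript MERGE.7224.2 followed with an r of 0.943, at 0.172 to 1.76 in AngII+neferine apart from replicate 4, where it was listed at 0, and at 42.2 and 41.8 in AngII replicates 4 and 6. The lowest values were -0.846 for ENSMUST00000151036 and -0.845 for MERGE.31667.8. The first was low throughout, at 0.506 to 2.23. MERGE.31667.8 had a rho of -0.446. It was at 0, 0.447 and 3.09 in AngII replicates 6, 4 and 1, at 3.43 in Control replicate 4, and at 23.8 to 52.95 elsewhere. All transcripts of this paragraph were picked as the extremes of 29983 transcripts less the members, so their r are descriptions.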

How the data were processed

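Libraries for Illumina sequencing were made from Trizol-extracted, rRNA-depleted RNA, per the labels' protocols. The deposited files hold 1 linear abundance signal per transcript and library, never negative, made by the authors without a stated unit, with totals of 392615 to 569873. Aligner, quantifier, build and annotation: not given in the sources used here. Limma is named without a role in the submitters' processing notes. Groups and replicate numbers come from the sample titles.

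Signals of the 39614 transcripts listed in all files were tested as log2(signal + 1) with limma 3.58.1 in R 4.3.3, with trend and robust moderation, 3 group terms and all 17 libraries. The filter asked for a signal of 1 or more in 5 or more libraries. The design had provided for counts too, and the abundance branch was used. The fit was also run on simulated data, with transcripts drawn independently and changes placed in transcripts picked at random. The globin transcripts follow each other and spread widely. That run therefore does not show how well a globin difference would be found. Sums, ratios and shares carry no test. Correlations used 100000 permutations, or all orders for n = 6, in numpy 2.4.6, with libraries permuted regardless of group.

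The members, lists and rules were chosen with earlier results of these data known. Members were named as given, plus the 2 transcripts with the highest and the 2 with the lowest r. Planned marker lists and promoter motifs were not measured, since 0 identifiers matched the RefSeq table of gene names and no promoter sequences were used here. Depth is unknown, so no counting interval is given. No pair of libraries was a duplicate, with at most 0.414% of transcripts equal above 0.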

Additional observations from a re-analysis of the deposited data

Results flagged for a closer look

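Each group's values were searched for a library far from the rest in 33 cases, and 5 were found. In a single case chance gives such a library about 5% of the time. The sums, ratio and shares are built from the same 4 transcripts, so the cases are not independent. The count of 5 therefore cannot be judged against that rate. The libraries found are 2 in number. AngII+neferine replicate 4 was far below its group in Hba-a1, at 30.8, in the alpha sum, at 46.3, and in the sum of all 4 transcripts, at 164. Its Hba-a2 signal, 15.5, was also the lowest of the series. AngII replicate 6 was far above its group in Hba-a2, at 4375, and in the share of Hbb-bt in the beta signal, at 43.7%. That library also had 16.4% of transcripts listed at 0, and the part of this in its globin values was not tested.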

How the results depend on the processing

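No globin transcript was called in any comparison under any of 29 or 30 alternative settings, which covered scaling, pseudocount, filter, test, fit and left-out libraries. The exact rank sum test is among these settings, and it called 0 transcripts of the whole table in each comparison. Its smallest possible p passes the adjustment only if a large share of transcripts reach it, so that setting is no check on the members. Some of these settings repeat the main log2 fold change by construction, since the filter, the test and the libraries of the third group do not enter it. The members also follow each other, so the counts below are not counts of independent checks. For AngII+neferine against AngII, all 116 recomputed log2 fold changes of the members stayed below 0, between -3.20 and -1.53, each with an unadjusted p under 0.05 and adjusted p of 0.475 to 1. For AngII against Control all 120 stayed above 0, between 0.69 and 2.77, with 59 at an unadjusted p under 0.05 and adjusted p of 0.482 to 0.866. For AngII+neferine against Control 115 of 116 stayed below 0, and the exception was Hbb-bs without Control replicate 4, at 0.0164 (adjusted p = 0.998), with a range of -1.002 to 0.0164 over single left-out libraries. Without AngII replicates 2 and 6 and AngII+neferine replicate 1, the differences of Hba-a2 were 0.69 for AngII against Control and -1.73 for AngII+neferine against AngII. With a replicate block Hbb-bt differed by 2.34, -2.79 and -0.45 in the 3 comparisons, in the order AngII against Control, AngII+neferine against AngII and AngII+neferine against Control, and 0 transcripts of the whole table were called in any of them, against 11 in the last without the block. The labels do not say that a number marks a shared origin. Of 16 same-numbered pairs, 0 had deviations correlated over 0.1 (range -0.147 to 0.064), against 4 of 80 pairs with other numbers. Of 17 libraries, 1 correlated best with its own number. No pairs of known shared origin were at hand to show what correlation it would give, so this check cannot exclude pairing. The main fit treated the samples as unpaired. The calls over all transcripts in the last comparison ranged from 0 to 110 over the settings. Over all groups, the Pearson r of each pair of members passed the permutation test with 1 library left out, with the pseudocount of 0.1 and without the 3 libraries that stand apart (19 settings, adjusted p at most 0.0389). The r of Hba-a2 with the beta transcripts did not pass within a file set. Its rho passed within that of Control and AngII (permutation test, adjusted p = 0.0376 for both pairs). Within the AngII+neferine libraries its rho did not pass (exact permutation test, adjusted p = 0.564 for both pairs). The number of libraries and the unknown depth limit what these data can show.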
